A study of Mus musculus with 10 samples.

Results

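The genes described here are Set and 9 genes for proteins that bind histones or work beside it: Anp32a, Anp32b, Anp32e, Ptma, Nap1l1, Nap1l4, Nasp, Ssrp1 and Supt16. They were taken by name from a list of Set, its acidic partner proteins and other histone chaperones, and make up 10 of the 19235 protein-coding genes on the chromosomes that the peak lists cover. A gene was said to have a peak where a listed peak overlapped its gene body or 1 kb on either side by at least 1 bp.

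The libraries are HA chromatin immunoprecipitations (ChIP-seq, sequencing of the DNA held by a tagged protein) from KH2 mouse embryonic stem cells. In these cells a pBS31 transgene expresses an HA-tagged isoform of SET, SETα or SETβ, after doxycycline, given here at 1 µg/ml for 24 h to each group below. The addback groups (SET KO SETα addback and SET KO SETβ addback) lack endogenous SET, and the overexpression groups (SETα overexpression and SETβ overexpression) carry the transgene with no SET knockout named in their labels. All 4 groups were crosslinked with DSG, which joins proteins to each other, before formaldehyde, and each group has 2 replicates. Every group comes from a separate line, so that line and group cannot be told apart. The position of the knockout lesion in Set, the number of clones behind a line and whether replicates were separate cultures are not given in the sources used here. The cells grew on mouse embryonic fibroblasts that were depleted before crosslinking, and peak lists hold no expression values with which to check the cell type. The 2 no-doxycycline samples of the SET KO lines were not analysed here, and the control behind the peak calls is not given in the sources used here, so no value without the tagged protein is set beside any peak.

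Histone chaperones are proteins that hold free histones, hand them to DNA and take them off again. Many, among them SET, the ANP32 proteins, prothymosin alpha, the NAP1 proteins and NASP, carry stretches rich in acidic residues that can hold the basic histones. SET also inhibits the phosphatase PP2A and is part of a complex that blocks histone acetylation. Its isoforms differ at the amino terminus and come from alternative first exons.

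The lists differed widely in length, which bears on how many genes can be found in them but does not alone set it. In addback the SETα lists had 22176 and 15701 entries and the SETβ lists 2518 and 9768. In overexpression the SETα lists had 4807 and 7675 entries and the SETβ lists 1343 and 2869. Chromosome 6, which carries none of the 10 genes, took 70.4% and 63.9% of the SETα overexpression entries and at most 9.20% of any other list, so fewer SETα overexpression peaks fell where the 10 genes lie than the list lengths show. Each peak has the authors' fold (signal over local background), −log10 p and −log10 q, and a rank within its own list, by −log10 p and then fold. A −log10 q of 1.3 stands for a q of 0.05. Ranks and folds are read within a list only, since lists of different length and depth are not on one scale, and the number of reads behind each value is unknown.

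All 10 genes had a peak in each SETα addback library, where 46.5% (replicate 1) and 41.0% (replicate 2) of all protein-coding genes did. With SETβ addback, 3 of the 10 had a peak in replicate 1 and 8 in replicate 2, against 10.7% and 28.3% of all genes. Across the overexpression libraries a peak was found at Nasp alone, in replicate 2 of each isoform. With 2.5 kb on either side Ptma also had one in each of these 2 libraries, whose shares of all genes at 2.5 kb were not counted. With 1 kb, 0 and 1 of 10 genes had a peak in SETα overexpression, against 2.51% and 4.65% of all genes. In SETβ overexpression 0 and 1 did, against 1.61% and 4.73%. In 3 of the 4 addback libraries 8 or more of the 10 genes had a peak, and in the 4 overexpression libraries at most 1. The addback and overexpression counts do not overlap, and neither do the shares of all genes.

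**Figure D1:**
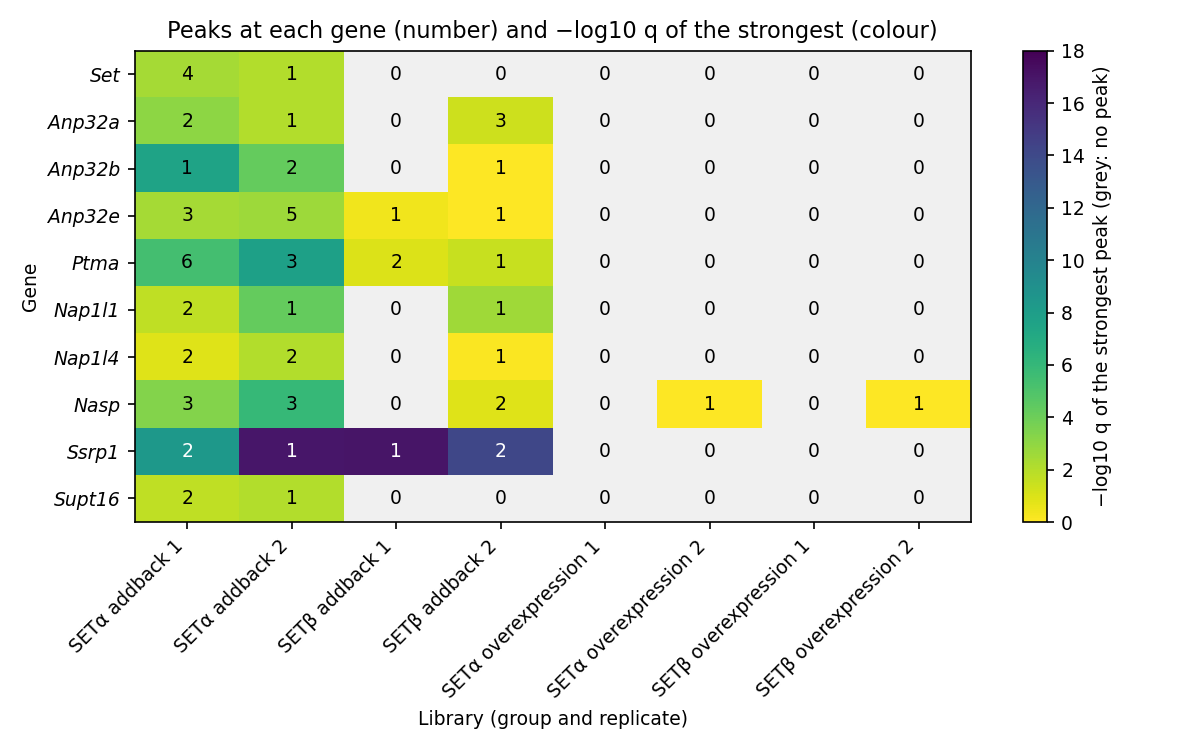
Number of peaks (digits) at each of the 10 genes (rows) in each of the 8 libraries (columns: group and replicate), with the −log10 q of the strongest peak as colour and grey for no peak. Ssrp1 is the darkest row in the addback libraries, with values from 8.39 to 17.0, and Nasp alone has peaks in the overexpression columns.

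Required in both replicates, a peak was found at 10 of 10 genes with SETα addback and at 3 of 10 with SETβ addback (Anp32e, Ptma and Ssrp1). The shares of all protein-coding genes were 31.8% and 7.99%. No gene of the 10 met this rule in overexpression, where 1.93% of all genes did with SETα and 1.16% with SETβ. Anp32e, Ptma and Ssrp1 are also the genes with a peak in all 4 addback libraries, a rule that 7.08% of all genes met. The 10 genes had a median length of 23500.5 bp, against 17397 bp for all protein-coding genes. Among the 9679 genes no shorter than Ptma (4156 bp) and no longer than Anp32a (37462 bp), 32.6% had a peak in both SETα addback replicates and 8.80% in both SETβ addback replicates, close to the shares over all lengths. In overexpression 1.68% did with SETα and 0.331% with SETβ, the latter well under the 1.16% over all lengths.

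**Figure D2:**
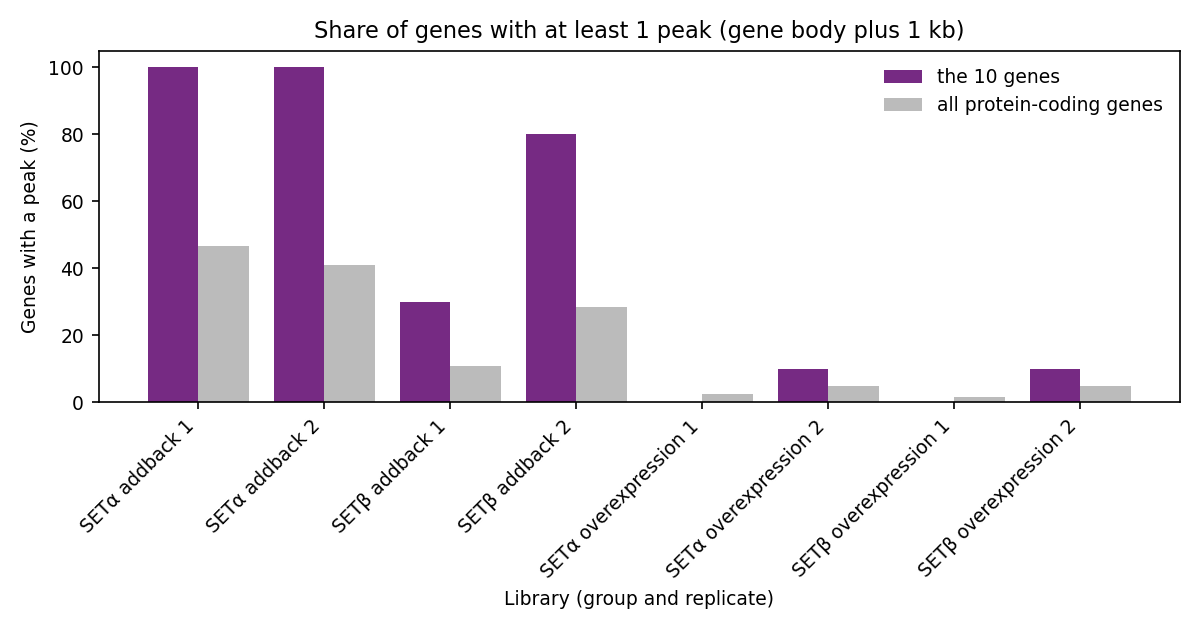
Percentage of genes with at least 1 peak in the gene body or within 1 kb (y axis) in each library (x axis), for the 10 genes (purple) and for all 19235 protein-coding genes (grey). The 10 genes reach 100% in both SETα addback libraries, 30.0% and 80.0% with SETβ addback, and at most 10.0% in overexpression.

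The SETα addback lists are the longer ones, so the isoforms were also set side by side at equal length. With each list held to ranks up to 1343, the length of the shortest, the SETα addback libraries had peaks at 3 of the 10 genes (Anp32b, Ptma and Ssrp1) and at 5 (the same and Nap1l1 and Nasp). The SETβ addback libraries then had peaks at 1 (Ssrp1) and at 2 (Nap1l1 and Ssrp1). All genes stood at 5.89% and 6.93% with SETα and at 7.09% and 6.51% with SETβ. Both SETα addback counts were above both SETβ addback counts. At the same length each overexpression library had peaks at 0 of the 10 genes. All genes stood there at 1.23% and 1.19% with SETα and at 1.61% and 2.09% with SETβ. No test was made over the 10 genes, because they were chosen with earlier results of these data known.

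The authors' IDR lists (irreproducible discovery rate, a comparison that keeps peaks ranked alike in both replicates) held 1 of the 10 genes, Ssrp1. It was in the SETα addback list, where 3.04% of all genes had a peak, and in the SETβ addback list, where 2.86% did. The overexpression lists held none of the 10, at a background of 0.161% with SETα and 0.0728% with SETβ.

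Over the 8 libraries the 10 genes had 65 peaks, of which 63 were in addback libraries. Of the 65, 40 had a q no higher than 0.05 and 8 a −log10 q of at least 5. These 8 lay at Ssrp1 (4 peaks), Ptma (2), Anp32b and Nasp (1 each). The share of all genes with such a peak in any library was not counted. In SETα addback a q of 0.05 or lower was met by 19 of 27 and 16 of 20 of these peaks, 70.4% and 80.0%, where the whole lists had 47.1% and 59.5%. In SETβ addback it was met by 1 of 4 and 4 of 12, 25.0% and 33.3%, where the lists had 47.4% and 24.8%. A −log10 q of at least 5 was met by 3 peaks in each SETα addback library, 11.1% and 15.0% against 4.80% and 6.50%, and by 1 in each SETβ addback library, 25.0% and 8.33% against 20.6% and 5.10%. Peaks that overlapped, directly or through another peak, made 47 sites. Of these, 36 were found in 1 library, 7 in 2 libraries, and 4 in 3 or more, and sites were not counted over all genes. Of the recurrent sites, the start of Ssrp1 and a stretch upstream of Ptma were each in all 4 addback libraries. The others, at or just downstream of the starts of Anp32b and Ptma, were each in 3.

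Set itself had peaks in both SETα addback libraries and in no other library. The gene lies on chromosome 2 from 30061996 to 30072577 (GRCm38, plus strand). RefSeq lists 2 starts for it, at 30061996 and at 30066474, which are 4478 bp apart. They are taken here as the starts of its alternative first exons, with no exon annotation at hand. Which of them gives SETα and which SETβ is not stated in the table used. The 250 bases before each start are shown because they separate the starts by sequence as well as position. They are from RefSeq (GRCm38.p6), plus strand, at chr2:30061746-30061995 and chr2:30066224-30066473, with every CG dinucleotide in capitals.
Set, before the first start: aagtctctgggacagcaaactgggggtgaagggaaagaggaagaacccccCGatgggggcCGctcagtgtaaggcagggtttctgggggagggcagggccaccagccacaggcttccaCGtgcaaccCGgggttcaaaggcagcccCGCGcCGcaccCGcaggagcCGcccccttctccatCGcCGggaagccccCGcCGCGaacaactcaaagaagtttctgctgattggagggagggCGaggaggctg
Set, before the second start: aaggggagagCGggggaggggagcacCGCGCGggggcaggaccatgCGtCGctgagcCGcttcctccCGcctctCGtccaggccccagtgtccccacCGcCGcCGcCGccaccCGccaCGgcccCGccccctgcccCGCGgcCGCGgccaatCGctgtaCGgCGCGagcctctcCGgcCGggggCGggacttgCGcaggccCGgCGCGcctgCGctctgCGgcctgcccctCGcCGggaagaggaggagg
The window of the second start holds 35 CG dinucleotides, more than 96.3% of 18832 such windows of protein-coding genes, and that of the first holds 15, more than 64.1%.

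SETα addback replicate 1 had 4 peaks in Set. The strongest spanned 30066598 to 30066884, with a fold of 3.73, a −log10 q of 2.42 and rank 2885 of 22176, and its summit lay 301 bp downstream of the second start. Another, from 30067238 to 30067561, had its summit 925 bp downstream of the same start and rank 7500. A further peak, from 30071273 to 30071628, lay 4969 bp downstream of that start, near the far end of the gene, at rank 6871. The weakest spanned 30062232 to 30062657, with a fold of 3.04, a −log10 q of 1.12 and rank 10737, and its summit lay 330 bp downstream of the first start.

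SETα addback replicate 2 had 1 peak in Set, from 30062145 to 30062938, with a fold of 3.90, a −log10 q of 2.07 and rank 3752 of 15701. Its summit lay 495 bp downstream of the first start. The site that both replicates share is therefore the one just downstream of the first start, where the summits are 165 bp apart. The site nearest the second start was listed in replicate 1 alone. At a q of at most 0.05 the replicates shared no site, since the replicate 1 peak near the first start had a −log10 q of 1.12. Neither upstream window printed above was touched by a peak. None of the Set peaks reached a −log10 q of 5. Its ranks carry ties, since 1059 peaks of replicate 1 share the values of rank 2885 and 1621 peaks of replicate 2 those of rank 3752.

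**Figure D3:**
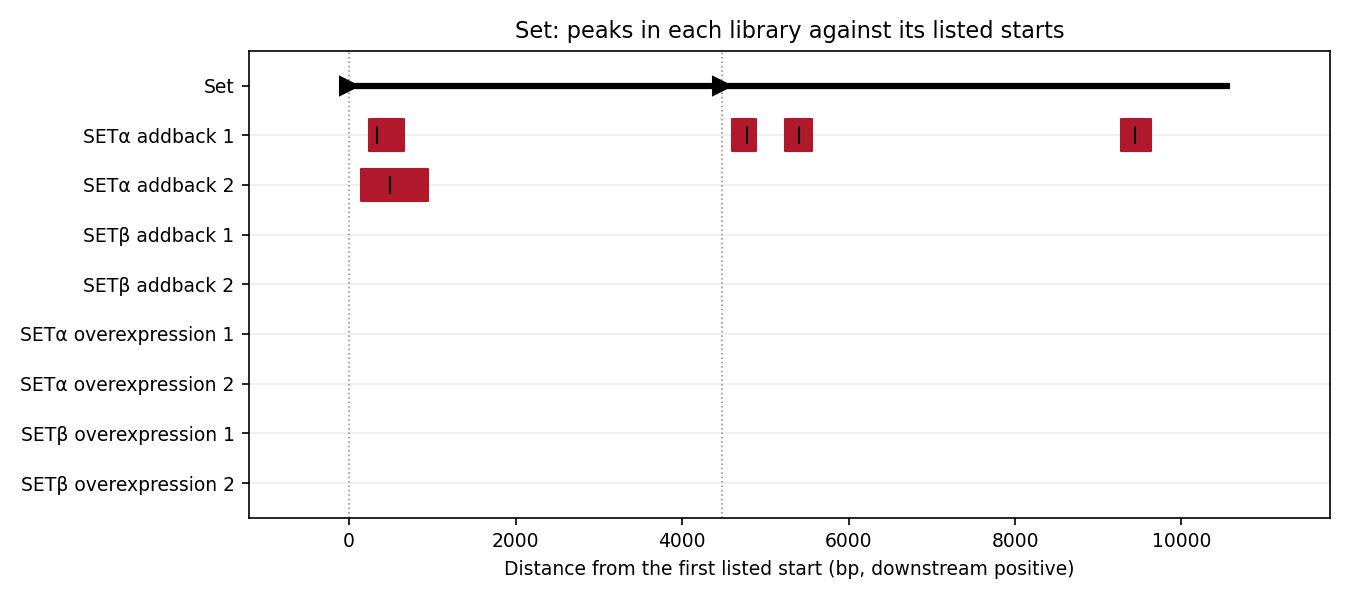
Peaks (bars; the black tick is the summit) at Set in each library (rows), by distance in bp from the first listed start (x axis); the black line is the gene and the arrowheads and dotted lines are its listed starts. Only the SETα addback rows hold peaks, and those of both replicates overlap just downstream of the first start.

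Of all protein-coding genes, 2081 others had peaks in both SETα addback libraries and in no other library. The closest to Set by the summed difference in log10 rank of the strongest peak over those 2 libraries were 38 genes with exactly its tied ranks, so the measure singles out no gene; 2610301B20Rik, AW146154 and Acsl3 come first by name.

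The ANP32 proteins bind histones through acidic tails. ANP32A is found with SET in the complex that blocks histone acetylation and inhibits PP2A as well, and ANP32E removes the variant histone H2A.Z from chromatin. Anp32b had the clearest site of the family. It lies on chromosome 4 from 46450926 to 46472657, and 3 of its 4 peaks met just downstream of the start at 46450926. They were at 46450839 to 46451357 in SETα addback replicate 1 (fold 5.48, −log10 q 7.55, rank 633) and at 46451053 to 46451296 in replicate 2 (fold 4.88, −log10 q 4.27, rank 1110). In SETβ addback replicate 2 the site was listed at 46450879 to 46451098 with a fold of 2.16, a −log10 q of 0 and rank 9513 of 9768, near the bottom of the list. Replicate 1 of SETβ addback had no peak there. The 3 summits lay 288, 239 and 161 bp downstream of the start and within 127 bp of each other. The remaining peak, in SETα addback replicate 2, lay 477 bp upstream (fold 3.68, rank 5551).

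The 250 bases before the Anp32b start, at chr4:46450676-46450925 on the plus strand (RefSeq, GRCm38.p6), are shown because the SETα addback replicate 1 and SETβ addback replicate 2 peaks reach into them. CG dinucleotides are in capitals.
Anp32b, before the start: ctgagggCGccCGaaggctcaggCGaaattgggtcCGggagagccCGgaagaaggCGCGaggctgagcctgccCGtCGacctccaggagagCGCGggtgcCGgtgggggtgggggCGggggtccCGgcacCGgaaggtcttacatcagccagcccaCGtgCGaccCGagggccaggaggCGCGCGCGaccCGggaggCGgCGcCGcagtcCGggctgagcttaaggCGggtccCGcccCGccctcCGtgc
This window holds 31 CG dinucleotides, more than 93.5% of such windows.

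Anp32a, on chromosome 9 from 62341343 to 62378804, had peaks at 6 sites, each in 1 library. With SETα addback the strongest was at 62343380 to 62343832 in replicate 1 (fold 3.98, −log10 q 3.05, rank 1990), 2316 bp downstream of the start, which also lies in the overlapping gene Gm20346. Replicate 1 also had a weaker peak at 62341429 to 62341628, with its summit 156 bp downstream of the start (fold 2.74, −log10 q 0.525, rank 16315). Replicate 2 had 1 peak, at 62340901 to 62341225 (fold 3.90, −log10 q 2.07, rank 3752), 277 bp upstream of the start. SETβ addback replicate 2 had 3 peaks, the strongest 22405 bp into the gene (fold 3.39, −log10 q 1.36, rank 1755), and replicate 1 had none. Both SETα addback replicates thus had a peak within 500 bp of the start, but these did not overlap, and no position of Anp32a was found in more than 1 library.

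Anp32e, on chromosome 3 from 95929245 to 95947387, had 10 peaks at 8 sites over all 4 addback libraries. The site that both SETα addback replicates share lay inside the gene, with summits 9715 and 9822 bp downstream of the start, folds of 3.50 and 4.13 and −log10 q of 2.07 and 2.67. A site 750 to 894 bp downstream of the start was listed in SETα addback replicate 1 (fold 3.73, −log10 q 2.42) and in SETβ addback replicate 1 (fold 2.84, −log10 q 0.356). The only peak of SETβ addback replicate 2 lay 2198 bp downstream, with a fold of 2.42 and a −log10 q of 0. The SETβ peaks of Anp32e missed a q of 0.05. Each SETα addback library also had a peak upstream of the start, 240 and 578 bp away and not shared, which overlap the noncoding gene Gm46815 too.

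Ptma encodes prothymosin alpha, a small and very acidic nuclear protein that binds linker histones. It is the shortest of the 10 genes, on chromosome 1 from 86526557 to 86530712, and had the most peaks, 12. Upstream of it, all 4 addback libraries had a peak between 86525004 and 86526150. The folds there were 3.49 and 4.55 with SETα and 2.48 and 3.27 with SETβ. The −log10 q were 1.84 and 3.48 with SETα and 0 and 1.54 with SETβ, and the summits lay 642 to 1286 bp upstream of the start, so the peak passed a q of 0.05 in 3 of the 4 libraries. These peaks form a chain in which the first replicates of SETα and SETβ do not overlap, and their summits span 644 bp, so no single position was found in all 4.

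Just downstream of the Ptma start, SETα addback replicate 1 had peaks with summits at 206 bp (fold 4.67, −log10 q 5.36, rank 900) and 573 bp. Replicate 2 had a peak with its summit at 612 bp (fold 6.18, −log10 q 7.77, rank 591). SETβ addback replicate 1 had one at 609 bp (fold 2.88, −log10 q 0.980, rank 1530 of 2518), and replicate 2 had none. Both SETα replicates also had a peak further inside the gene, with summits at 1535 and 1727 bp. Replicate 1 alone had peaks at 2863 and 3756 bp, the last of which spans 1235 bp over the end of the gene. Farther upstream, beyond 1 kb from the gene, the replicate 2 libraries of overexpression had peaks with summits 2323 bp (SETα, fold 2.71, −log10 q 0.0962, rank 5636 of 7675) and 2225 bp (SETβ, fold 3.57, −log10 q 1.36, rank 332 of 2869) before the gene. These overlap each other, and the SETβ one also overlaps a peak of SETα addback replicate 1 with its summit 1849 bp before the gene (fold 3.27, −log10 q 1.56).

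Nap1l1 and Nap1l4 encode chaperones that carry H2A and H2B. Nap1l1, on chromosome 10 from 111472882 to 111498150, had a shared SETα addback site just inside the gene. The summits lay 263 and 360 bp downstream of its listed start, with folds of 3.14 and 4.88, −log10 q of 1.70 and 4.27, and ranks 6742 and 1110. SETβ addback replicate 2 had its peak elsewhere, 2470 bp downstream (fold 3.87, −log10 q 2.60, rank 942 of 9768), and replicate 1 had none. In that library only the Ssrp1 start peak ranked higher among the 10 genes.

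Nap1l4, on chromosome 7 from 143513579 to 143549882, has no listed start in the table, so its peaks are placed against the ends of the gene. Both SETα addback replicates had a peak between 143548660 and 143549004, about a kilobase inside the higher-coordinate end, with folds of 2.99 and 3.90 and −log10 q of 0.895 and 2.07. Each also had another peak toward that end, with the same values as its first, at positions that did not overlap. SETβ addback replicate 2 had a peak nearer the opposite end, from 143519932 to 143520131, with a fold of 2.67 and a −log10 q of 0.0916. In SETα addback replicate 1, Nap1l4 was the only one of the 10 genes with no peak at a q of at most 0.05.

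Nasp encodes a chaperone that keeps a pool of H3 and H4. It lies on the minus strand of chromosome 4 from 116601052 to 116628676 and had 10 peaks at 10 sites, none of them shared between libraries. The strongest, in SETα addback replicate 2 from 116627080 to 116627504, had a fold of 5.53, a −log10 q of 5.96 and rank 730, with its summit 704 bp downstream of the listed start at 116627951. The strongest of replicate 1 lay 16567 bp downstream (fold 3.55, −log10 q 3.35, rank 1850). SETβ addback replicate 2 had peaks 196 bp downstream (fold 2.91) and 1703 bp upstream (fold 3.15), with −log10 q of 0.416 and 0.844, and replicate 1 had none.

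The overexpression peaks of Nasp lay 4573 bp downstream of the start with SETα (116623200 to 116623424, fold 2.66, rank 6805 of 7675) and 1419 bp downstream with SETβ (116626384 to 116626645, fold 2.81, rank 1478 of 2869). Both had a −log10 q of 0, and neither overlapped an addback peak or the other.

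Ssrp1 and Supt16 encode the subunits of FACT, which loosens and rebuilds nucleosomes for the polymerases. Ssrp1, on chromosome 2 from 85037120 to 85047114, had the strongest peaks of the 10 genes in every addback library. They were at 85036933 to 85037619 and 85036951 to 85037545 with SETα, with folds of 5.73 and 9.10 and −log10 q of 8.39 and 16.9. With SETβ they were at 85037019 to 85037440 and 85037079 to 85037452, with folds of 6.84 and 6.83 and −log10 q of 17.0 and 14.2. Their ranks were 573, 332, 327 and 282 in lists of 22176, 15701, 2518 and 9768. All 4 passed a −log10 q of 5, and none of the 4 overexpression libraries listed a peak in the gene or within 1 kb.

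The 4 summits at the start of Ssrp1 lay within 120 bp, between 85037183 and 85037303. They fall between the 2 starts that RefSeq lists, at 85037120 and 85037451, which are 331 bp apart. In the IDR lists the peak had a −log10 p of 12.6 and rank 366 of 530 with SETα and 18.8 and rank 268 of 485 with SETβ. It also overlaps the neighbouring gene P2rx3, whose higher-coordinate end lies at 85037108, so the peak cannot be given to Ssrp1 alone. The strand of P2rx3 was not read here, so whether its transcription starts or stops there is not given. The 250 bases before the first start, at chr2:85036870-85037119, and 30 bases around the SETβ IDR summit, at chr2:85037265-85037294, are shown because the 4 peaks reach into the first and cover the whole of the second. Both are plus strand from RefSeq (GRCm38.p6), with CG dinucleotides in capitals in the first and the base at the summit in the second.
Ssrp1, before the first start: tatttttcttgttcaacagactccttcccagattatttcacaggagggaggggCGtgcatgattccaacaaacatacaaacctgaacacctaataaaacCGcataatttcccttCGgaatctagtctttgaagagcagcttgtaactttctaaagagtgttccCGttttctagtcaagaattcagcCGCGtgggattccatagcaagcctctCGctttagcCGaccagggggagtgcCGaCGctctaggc
Ssrp1, at the summit: ctcccctgcgtccccCtgcgcccaccgccc
The window before the first start holds 10 CG dinucleotides, more than 50.9% of such windows, and has 46.4% G and C. Before the second start there are 26 CG dinucleotides, more than 87.9%, and 67.6% G and C.

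**Figure D4:**
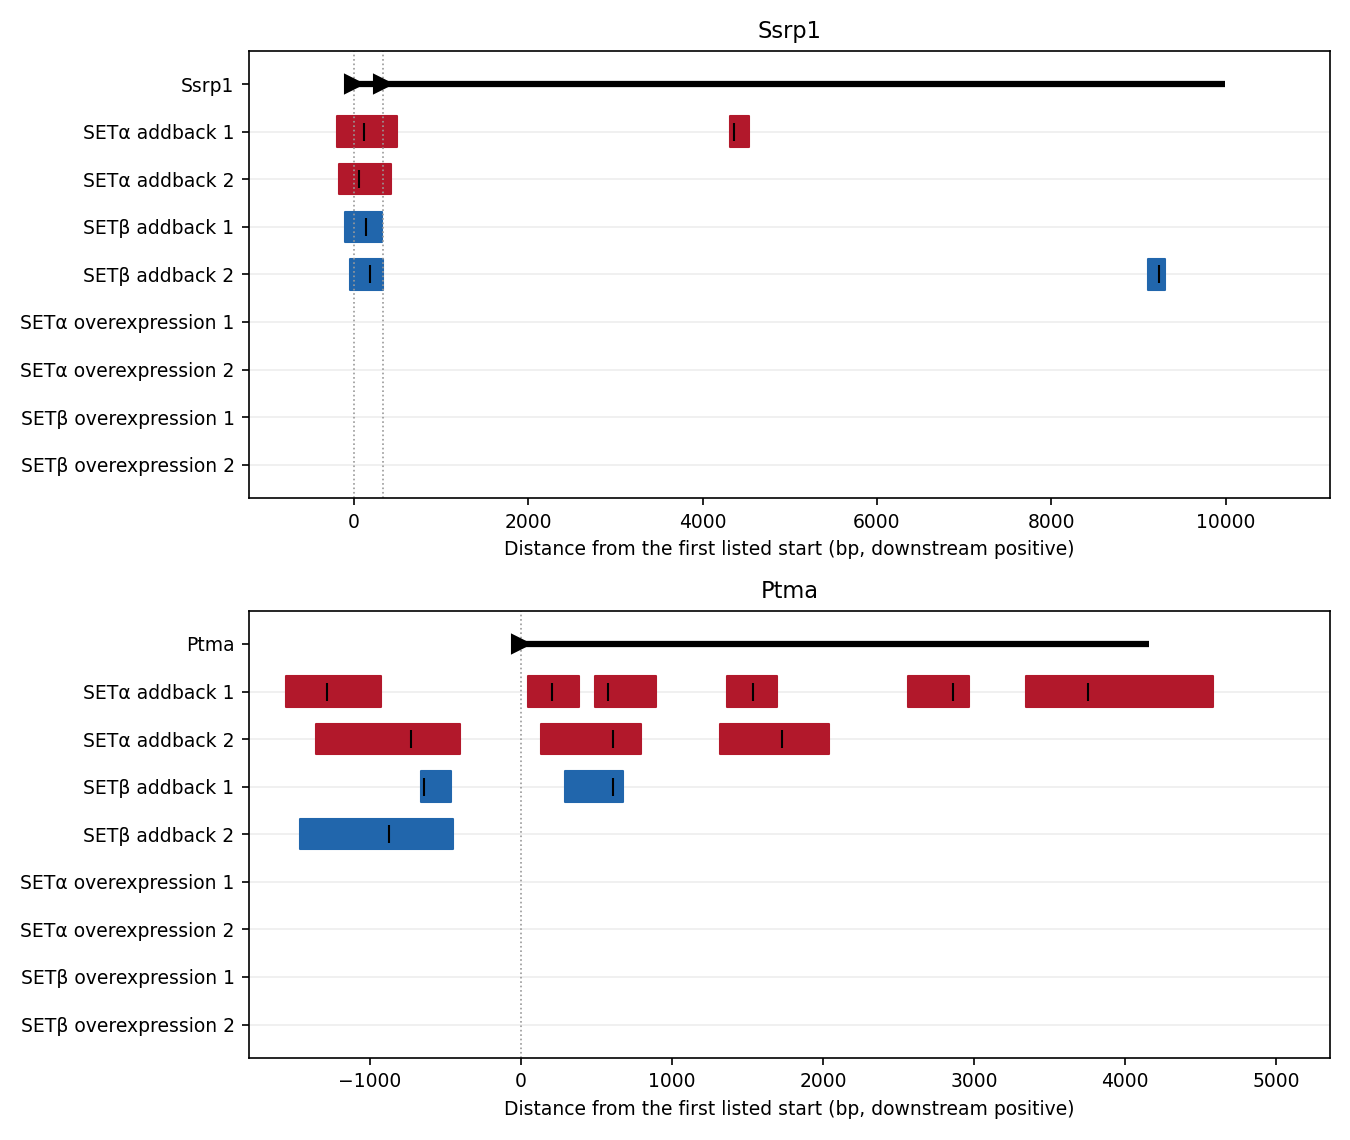
Peaks (bars; the black tick is the summit) in each library (rows) at Ssrp1 (top) and Ptma (bottom), by distance in bp from the first listed start (x axis); the black line is the gene and the arrowheads and dotted lines are listed starts. All 4 addback libraries have a peak between the starts of Ssrp1, and all 4 have one upstream of Ptma, while the overexpression rows hold no peak within 1 kb of either gene (peaks farther out are not drawn).

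Away from the start, Ssrp1 had 1 peak in SETα addback replicate 1 (fold 3.04, rank 10737) and 1 in SETβ addback replicate 2 (fold 2.67, rank 6985), neither shared. Supt16, on the minus strand of chromosome 14 from 52160419 to 52197239, resembled Set in its presence, with peaks in both SETα addback libraries and in no other. Both had a peak at or just downstream of its start, with summits 188 and 405 bp downstream, folds of 3.24 and 3.90 and −log10 q of 1.34 and 2.07. The FACT subunits thus differed, since Ssrp1 was listed in all 4 addback libraries and Supt16 in those with SETα. Whether that difference goes beyond replicate error was not tested, and SETβ lists are shorter. Replicate 1 also had a peak of Supt16 near its far end, 35672 bp from the start.

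By presence over the 8 libraries, 1145 other protein-coding genes matched Ssrp1. The closest in summed log10 rank difference over the 4 addback libraries were its neighbour P2rx3 (0, the same peaks), Grpel2 (0.164) and Dstyk (0.171). Grpel2 had ranks 681, 371, 316 and 299 and Dstyk 604, 305, 260 and 290.

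Position and sequence were compared over the 9 genes with a listed start. Of their 58 addback peaks, 20 had a summit within 500 bp of a start. By library the shares were 36.0% and 38.9% with SETα, where peaks over protein-coding genes with a listed start stood at 38.2% and 46.2%. With SETβ they were 25.0% (1 of 4 peaks) and 27.3% (3 of 11), against 67.5% and 41.5%. In each of the 4 addback libraries the share at these genes was the lower one, on few peaks with SETβ. The shares over all genes count a peak for each gene whose region it overlaps. The median fold of the peaks at the 10 genes was 3.27 (replicate 1) and 3.90 (replicate 2) in SETα addback, where the lists as wholes had 2.99 and 3.57. In SETβ addback it was 2.86 and 3.03, where the lists had 3.19 and 2.91. The SETβ replicates thus lay on opposite sides of their lists.

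All 11 windows of 250 bases before their listed starts held more CG dinucleotides than the median over all such windows, from 10 at the first start of Ssrp1 to 35 at the second start of Set. The letters GGGCGG (GC box), searched on both strands, were in 7 of the 11 windows and in 42.0% of all such windows. CCAAT, on both strands, was in 7 of the 11 and in 35.3%, with 4 matches at Anp32e and 3 at Anp32a. TATAAA, on both strands, was in none of the 11 and in 11.7%. Before the first start of Set there is 1 match to GGGCGG and 1 to CCAAT, before its second start 2 and 1, and before the first start of Ssrp1 none of either.

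Other histone chaperones were counted from a list of 37 genes, of which 34 lie on the chromosomes analysed. In both SETα addback replicates 18 of 34 had a peak, 52.9% against 31.8% of all genes, and in both SETβ addback replicates 4 of 34, 11.8% against 7.99%. In overexpression 1 of 34 had a peak in both SETα replicates, 2.94% against 1.93% of all genes, and 0 in both SETβ replicates, against 1.16%. Those with a peak in all 4 addback libraries were Hira, which deposits H3.3, Rsf1, a subunit of a remodeller that spaces nucleosomes, and Ptms, which encodes parathymosin, a relative of prothymosin alpha. These 3 of 34, 8.82%, lie near the 7.08% of all genes that met the rule.

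Hira had the strongest of these peaks, with summits 385 to 423 bp from its start on chromosome 16. In SETα addback they had folds of 12.0 and 12.7 and ranks 120 and 169, and in SETβ addback folds of 8.32 and 7.71 and ranks 245 and 215. These ranks were all better than those of Ssrp1 in the same libraries. The peak was in the SETβ addback IDR list, at rank 205, and not in that of SETα, and in 3 of the 4 libraries it also overlapped Mrpl40. At Rsf1 the strongest peaks had folds of 4.67 and 4.23 in the SETα addback replicates, and 2.39 and 3.39 in those of SETβ, at 4 different positions. The second and the last also overlap Aamdc. In SETβ addback replicate 1 the Rsf1 peak had a −log10 q of 0 and rank 2382 of 2518, near the bottom of the list.

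Ptms had a peak in 7 of the 8 libraries, with folds of 4.90 and 4.91 in SETα addback, 3.15 and 3.47 in SETβ addback and 3.49 and 4.77 in SETα overexpression. It had a peak of fold 2.79 and a −log10 q of 0 in replicate 2 of SETβ overexpression. It was in the IDR lists of SETα addback (rank 385) and SETα overexpression (rank 102), where its peaks lay 198 and 1801 bp from its start. Ptms lies from 124913675 to 124917946 on chromosome 6, which holds most SETα overexpression peaks; the part of that in its overexpression values was not tested. Its addback peaks also overlap A230083G16Rik.

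Genes of the SET complex and of PP2A were counted from a list of 15, of which 10 lie on the chromosomes analysed. A peak in both SETα addback replicates was found at 4 of 10, against 31.8% of all genes, and in both SETβ addback replicates at 0 of 10, against 7.99%. None of the 10 had an IDR peak, at shares of all genes from 0.0728% to 3.04%.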

How the data were processed

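Peak lists of 8 ChIP-seq libraries (4 groups, 2 replicates each) and 4 IDR lists were analysed. Bowtie2, MACS2 and deepTools and the builds GRCm38 and mm10 are named, with no versions or roles, per the submitters' processing notes; the control library and filters are not given in the sources used here. The deposited library lists give, per the layout of narrow peak files, a score, a fold (ratio of signal to local background), −log10 p and −log10 q for each peak, called in each library separately, and the highest p was 0.005. The deposited IDR lists give a score and −log10 p for peaks of both replicates combined.

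Positions were converted to count from 1. Genes came from RefSeq (GRCm38.p6) and starts from its promoter table, which held 9 of the 10 genes (not Nap1l4). Overlaps, ranks (ties share the best rank) and shares were computed with Python 3.11.15 and pandas 2.3.3. The overlap code was tested on simulated peaks. Chromosomes 8 and 11 were not analysed here, and 3 mitochondrial peaks were left out. No test was made: the genes and lists were chosen with earlier results of these data known, and there are 2 replicates a group. The text describes all 10 genes, and of the other lists those with an IDR peak or a peak in all 4 addback libraries. Alternatives changed the region (gene body alone, 2.5 kb, gene ends), the threshold on q, the overlap rule and the replicate used; lists of equal length were added after seeing the data.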

Additional observations from a re-analysis of the deposited data

How the results depend on the processing

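No paired analysis was possible because the counts come from no test and the peak lists share only replicate numbers. Of the 10 genes, those with a peak in both SETα addback replicates numbered 9 with the gene body alone (27.6% of all genes), 10 with 2.5 kb (33.9%), 10 with gene ends (22.0%), 10 with summits (31.5%) and 9 at a q of at most 0.05 (18.8%). They numbered 2 (Ssrp1 and Ptma) at a −log10 q of at least 5, where 3.21% of all genes met the rule, and 3 in lists of equal length, where 3.68% did. With SETβ addback the count of 3 became 2 with the gene body alone (6.90% of all genes) and with gene ends (5.85%). It became 1 at a q of at most 0.05 (4.13%), 1 at a −log10 q of at least 5 (2.56%) and 1 in lists of equal length (3.98%). Taking either replicate alone gave 10 in each case with SETα addback (41.0% and 46.5% of all genes), 3 to 8 with SETβ addback, and 0 to 1 with SETα and with SETβ overexpression. The SETβ addback count was 8 without replicate 1, whose list is the shortest of the addback lists at 2518 peaks, and 3 without replicate 2; the share of all genes moved with it, to 28.3% and 10.7%. The overexpression counts were 1 without replicate 1, at 4.65% of all genes with SETα and 4.73% with SETβ, and 0 without replicate 2, at 2.51% and 1.61%. Counts from IDR lists were the same under each region and overlap rule run. Counting libraries per gene, 9 of the 10 genes moved by over 1.5 times at a −log10 q of at least 5 and 3 at a q of at most 0.05. With gene ends 1 did, and none did with the gene body alone, 2.5 kb or summits, though with 2.5 kb Ptma went from 4 libraries to 6, the added ones being overexpression. Read depth is unknown, so a missing peak says only that none was listed.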
